A study of Mus musculus with 4 samples.

Results

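The cells described here were 563 barcodes from mouse brain, of 36876 deposited and 30941 that passed the limits below, that were chosen on their own RNA counts for genes of fibroblasts, the cells that make collagen matrix. A barcode is the droplet label that stands for 1 cell, and a UMI is 1 counted RNA molecule. A member had at least 1000 UMIs, a mitochondrial share of at most 15.8%, at least 15 UMIs summed over *Dcn*, *Col1a1*, *Col1a2*, *Col3a1* and *Lum*, at most 4 UMIs over the mural genes *Acta2*, *Myh11* and *Kcnj8*, at most 10 over the endothelial genes *Cldn5*, *Flt1* and *Ly6c1*, and not both *Npy* and *Frzb*. There was no upper limit on UMIs. These 13 genes fixed the choice, so their values are given below as a description without a test.

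The whole brains of 4 male C57BL/6J mice were dissociated, myelin and dead cells were removed, and RNA was barcoded with 10x Genomics 3′ chemistry. Each mouse stood for 1 combination of age and diet. Adult mice were 3 to 4 months old and aged mice 23 to 24 months old when they began a diet with 0% or 5% inulin, a fermentable fiber. Both diets also held 1% cellulose. The study asked about microglia in aging and under fiber, and the fibroblasts came in the same libraries. The 2 adult mice were compared here with the 2 aged mice, and the 2 diets with each other. Values by mouse are listed throughout in the order adult 0%, adult 5%, aged 0% and aged 5% inulin.

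Brain fibroblasts lie mainly in the meninges, the layered membranes around the brain, and around larger vessels that enter it from the pia. The pia lies on the brain surface, the arachnoid with its barrier layer lies above it, and the dura is outermost. Fibroblasts of these layers lay down fibrillar and basement membrane collagens and release retinoic acid, chemokines, BMP and WNT ligands and inhibitors. Layers are told apart by genes such as *Lama1*, a basement membrane laminin of the pia, *Slc6a13*, a GABA and taurine transporter, *Cldn11*, a tight junction protein of the arachnoid barrier, and *Slc47a1*, an organic cation exporter of border fibroblasts. MHC class II proteins display peptides to CD4 T cells. Their chains *H2-Aa*, *H2-Ab1* and *H2-Eb1*, their chaperone *Cd74* and the peptide loading proteins *H2-DMa* and *H2-DMb1* are best known from macrophages, dendritic cells and B cells.

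The members numbered 165, 141, 136 and 121 in the 4 mice. Their summed UMIs were 3536928, 2807928, 3363581 and 3492881, and the median UMIs per member were 17382, 15011, 18562.5 and 19969. Members were deeper than the other barcodes within the limits, whose median was 7179 UMIs, and closer to mural barcodes, with a median of 14915. The 5-gene sum had a median of 30 UMIs and ranged from 15 to 596. Just inside the limit, 136 members had 15 to 19 of these UMIs, and just outside it 162 barcodes had 10 to 14. Of barcodes with enough of the 5 genes, 33 were left out on mural genes, 45 on endothelial genes and 5 on *Npy* with *Frzb*. No barcode sequence was shared between members of different mice, while 11 to 24 were shared per pair of mice among all barcodes within the limits.

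The genes of the rule were uneven among the members. *Col1a2*, a chain of type I collagen, was detected in 99.5% of them at 893, 998, 841 and 767 CPM, the usual scaling of a gene's UMIs to the plain sum of all UMIs of a mouse's members. *Col1a1*, its partner chain, stood at 368, 555, 379 and 281 CPM in 89.5% of members. The small proteoglycan *Dcn* stood at 368, 1417, 447 and 607 CPM in 62.5% of members, highest in the adult mouse fed 5% inulin. *Col3a1* was found in 68.2% and *Lum*, a second small proteoglycan, in 14.0% of members, at 33.9, 189, 69.3 and 51.3 CPM for *Lum*. Most members therefore entered through collagen rather than *Lum*.

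The marker genes went only partly with the name meningeal and perivascular fibroblasts. *Lama1* was detected in 7.10% of members, at 9.77 CPM over all of them, and the general fibroblast gene *Pdgfra* in 48.1%. Genes taken here as markers of the layers were uneven within each list. Of the pial or perivascular list, *Cxcl12* was seen in 77.6%, *Lama2* in 58.8% and *S100a6* in 42.6% of members. Their levels were 174, 55.7 and 251 CPM, against 576, 14.9 and 200 CPM in the other barcodes. Of the dural and arachnoid barrier lists, *Dkk2* was seen in 0.533%, *Krt18* in 4.80% and *Dpp4* in 13.3%. *Slc47a1* was seen in 86.9% of members at 536 CPM, the transcription factor *Foxc2* in 87.2% at 263 CPM, *Cldn11* in 79.4% at 308 CPM, and *Cdh1*, the epithelial cadherin, in 58.1% at 157 CPM. *Mgp*, an inhibitor of calcification, reached 14051 CPM and *Ptgds*, the prostaglandin D synthase, 7771 CPM. The 10 genes with the highest fold over all other barcodes were the retinol carrier *Rbp4* (73.4-fold), *Dcn*, *Col1a1*, *Igfbp6*, *Col6a1*, *Ccn3*, *Col6a2*, *Tspan11*, *Cldn11* and *Mfap5*, each at least 45.9-fold higher in CPM with 1 CPM added. These folds describe cells picked on correlated genes and carry no test.

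Clustering of the members without the 13 rule genes, with the mean of each mouse removed, gave 8 sub-clusters. Sub-cluster 1 held 43 cells (9, 18, 5 and 11) and was led by *Lama1* (310 CPM, 192-fold over the other members), *Slc6a13* (980 CPM), *Clec3b*, *Edn3* and *Slc7a11*. Its *Dcn* was 7464 CPM, its *Lum* 1046 CPM and its *Slc47a1* 5.13 CPM. It met the marker rule of the fibroblast list with 7 genes, of the pial or perivascular layer with 5 and of the arachnoid layer with 5, and also of the endothelial list with 5 and the smooth muscle list with 3. The markers do not choose between the pial or perivascular and the arachnoid name, so it is called the *Lama1* sub-cluster below. It held 7.64% of all members.

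Sub-clusters 2 to 6 held 477 cells (142, 113, 123 and 99), carried *Slc47a1* at 486 to 783 CPM, and are called the *Slc47a1* sub-clusters. Sub-cluster 3 (97 cells) was led by the secreted glycoprotein *Myoc*, *Shisa3*, the gelatinase *Mmp2*, *Mfap5* and *Cpz*, and met the dural list through *Alpl*, *Fxyd5* and *Slc47a1*. Sub-cluster 4 (107 cells) was led by *Msln*, *Dapl1*, *Dpp4*, *Arpp21* and *Podxl*, and met the arachnoid barrier list through *Cdh1*, *Cldn11*, *Dpp4* and *Klf5*. Sub-cluster 2 (138 cells) was led by *Slc1a2*, *Aldoc*, *Chst10*, *C130026I21Rik* and *Tmod4*, of which the first 2 are astrocyte genes, and sub-cluster 6 (88 cells) by *Cdh6*, *Lrrc17*, *Rln1*, *Thsd7a* and *Gpc5*. These, and sub-cluster 5 with its leading genes *Gm42440*, *Ifit3b*, *Gpha2*, *Bmp3* and *Pde11a*, met no marker list and stay unnamed.

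**Figure D1:**
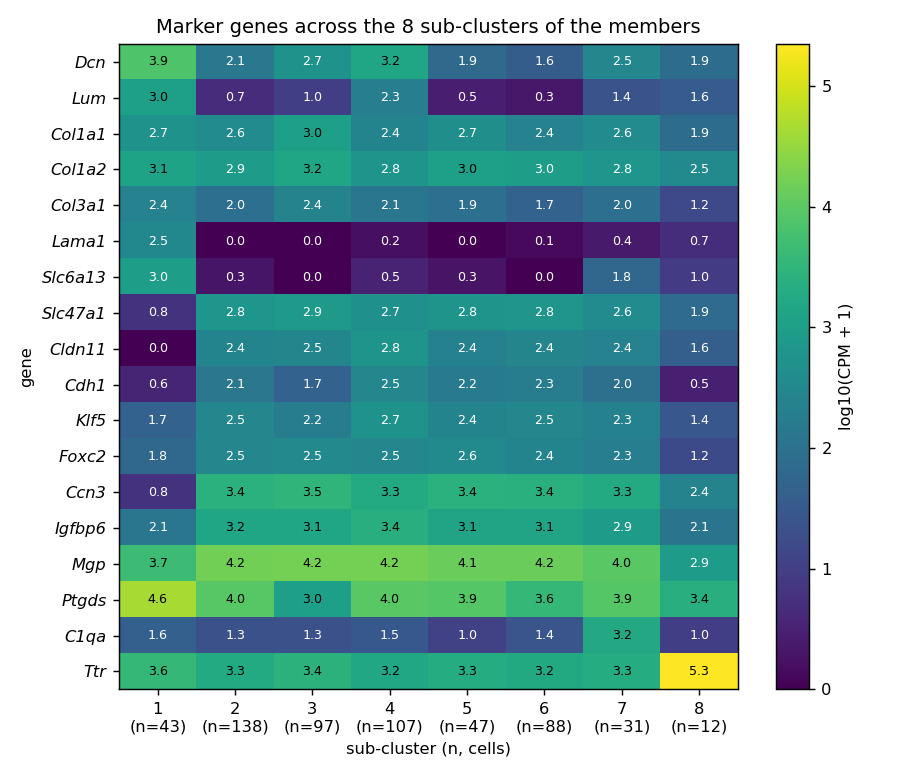
Level of layer and other cell type markers (vertical) in each of the 8 sub-clusters (horizontal, with the number of cells), as log10 of CPM of the plain UMI sum with 1 added. *Lama1* and *Slc6a13* are high in sub-cluster 1, *Slc47a1* and *Foxc2* in sub-clusters 2 to 6, *C1qa* in sub-cluster 7 and *Ttr* in sub-cluster 8.

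Before the comparisons, 3 groups of members stand apart. Sub-cluster 5 held 47 cells, all from the adult mouse fed 5% inulin, where they were 33.3% of its members, and that mouse had only 4 of the 88 cells of sub-cluster 6. Sub-cluster 7 (31 cells) met all 7 microglia markers, with *C1qa* at 1704 CPM, and its leading genes were *S100a8*, *S100a9*, *Ly86*, *C1qc* and *C1qa*. Sub-cluster 8 (12 cells: 6, 3, 2 and 1 in the 4 mice) held *Ttr*, the main product of the choroid plexus, at 223527 CPM. It had a median of 78199.5 UMIs per cell and 5 of the 11 members that Scrublet, a doublet caller, marked. Its cells held 487970, 236106, 133382 and 149022 of the 3536928, 2807928, 3363581 and 3492881 summed UMIs. The share was larger in both adult mice than in both aged mice, and its part in the age results was not tested. Sub-clusters 7 and 8 are called mixed droplets, since each carried *Col1a2* and met the microglia or the choroid plexus list. Only these 2 lists decided the name. The *Lama1* sub-cluster, which met the endothelial and smooth muscle lists, was therefore not counted as mixed. The age fit was therefore run on all 563 members, on the 520 without mixed droplets and on the 477 of the *Slc47a1* sub-clusters. Both of the smaller sets were chosen after the sub-clusters were seen.

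**Figure D2:**
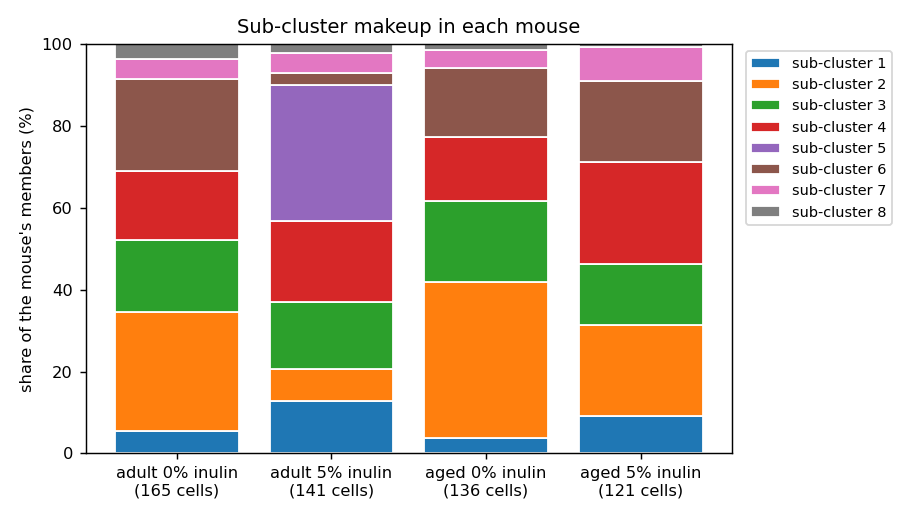
Share of each mouse's members (vertical, %) in each sub-cluster (colours), with the 4 mice on the horizontal axis. Sub-cluster 5 appears in the adult mouse fed 5% inulin alone, as 33.3% of its 141 members, and sub-cluster 6 is nearly missing there.

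Members were 2.10% (exact 95% binomial interval 1.79 to 2.44), 1.65% (1.39 to 1.94), 2.05% (1.72 to 2.42) and 1.54% (1.28 to 1.84) of the barcodes within the limits. The intervals cover counting error only. Both mice fed 5% inulin had lower shares than both fed 0%, at means of 1.59% and 2.07%, and the exact two-sided permutation test gave p = 0.333, the smallest that 2 mice against 2 allow. With at least 30 UMIs of the 5 genes the shares were 0.914, 0.946, 1.03 and 0.788%, so the diets overlapped (exact permutation p = 0.667). The aged and adult means were 1.79% and 1.87% (exact permutation p = 0.667). Neither comparison could pass a threshold in this design.

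With age, 34 genes rose and 91 fell in the summed UMIs of the members, of 12328 genes tested with edgeR (0.276% and 0.738%), at an adjusted p under 0.05 and a change above 1.5-fold. The p-values rest on the spread between the 2 mice of each age, which also differed in diet. That spread was moderated across genes by edgeR. Of the 34 that rose, 30 were tested in the *Slc47a1* sub-clusters, where all 30 kept their sign and 14 were called too. Of the 91 that fell, 52 were tested there, 49 of these kept their sign and 13 were called. Without the mixed droplets 15 of the rises and 13 of the falls were called again. Of the rises, 9 stood lower in the aged members than in the aged mice's other barcodes, and 68 of the falls stood lower in the adult members than in the adult mice's. Called in all 3 sets of members were 12 rising and 12 falling genes, so the changes below are given with the calls they lose in the smaller sets. Among these falls were the astrocyte genes *Gpr37l1* and *Bcan*, named after their values were seen. In the adult mice *Gpr37l1* was 19.4 and 29.2 CPM in the members and 254.6 and 275.5 CPM in the other barcodes. Sub-cluster 2, led by the astrocyte genes *Slc1a2* and *Aldoc*, is part of all 3 sets. The part of astrocyte RNA in these falls was not tested.

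**Figure D3:**
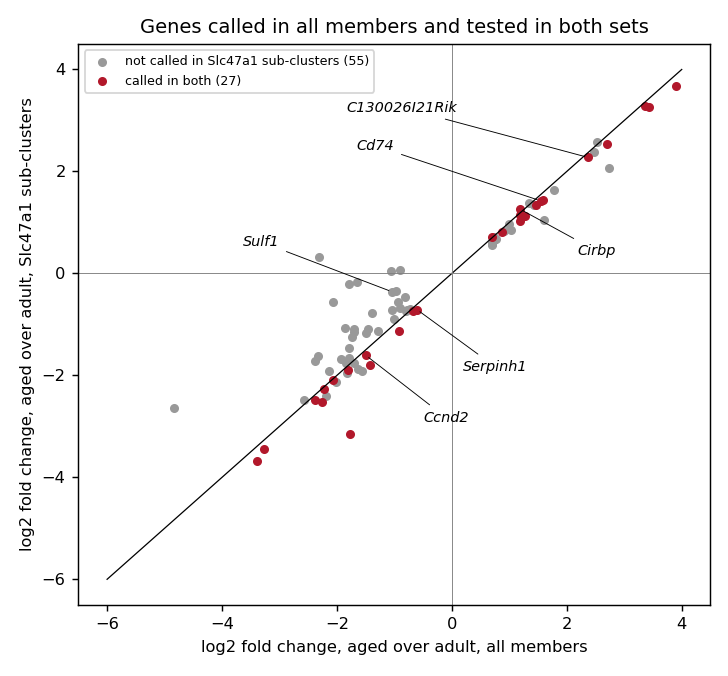
Log2 fold change with age in all 563 members (horizontal) against that in the 477 cells of the *Slc47a1* sub-clusters (vertical), for the called genes tested in both sets, with the line of equal change. Most of the 27 genes called in both (red) lie near the line, *Kcnk1* lies off it (log2 -1.76 and -3.15), and several called falls such as *Sulf1* lie near 0 on the vertical axis.

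Of the 25 gene lists, antigen presentation had the most called rises (5), among them the MHC class II genes *Cd74*, *H2-Aa*, *H2-Ab1* and *H2-Eb1*. The lists were chosen with earlier results of these data known, so this rank is a description and no independent support. *Cd74*, the invariant chain, stood at 391, 328, 1031 and 1064 CPM on the TMM scale, edgeR's trimmed-mean scaling between mice, which is used for all age results. Both aged mice were above both adult mice, a rise of 1.54 ± 0.12 on the log2 scale (SE, 2 mice against 2) or 2.91-fold (edgeR adjusted p = 0.0030). *H2-Aa*, the alpha chain of I-A, stood at 137, 119, 368 and 340.4 CPM and rose 2.76-fold (log2 1.46 ± 0.12, edgeR adjusted p = 0.0030). *H2-Ab1*, its beta chain, stood at 95.6, 72.0, 262 and 242 CPM and rose 2.99-fold (log2 1.58 ± 0.15, edgeR adjusted p = 0.0052). The adult and aged ranges did not overlap for any of the 3 genes, and the same held for all 34 called rises and 91 called falls. With 2 mice against 2, non-overlap alone gives an exact two-sided permutation p of 0.333.

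*H2-Eb1*, the beta chain of I-E, stood at 97.9, 99.8, 246 and 230.2 CPM and rose 2.41-fold (log2 1.27 ± 0.11, edgeR adjusted p = 0.0032). C57BL/6 mice make no I-E protein at the cell surface because their alpha chain gene is not expressed, so this is a reading of RNA alone. The peptide loading gene *H2-DMa* stood at 49.6, 40.4, 81.9 and 88.1 CPM and rose 1.88-fold (edgeR adjusted p = 0.028), and *H2-DMb1*, named after its values were seen, stood at 78.0, 72.7, 128 and 117 CPM and rose 1.62-fold (edgeR adjusted p = 0.036). In the *Slc47a1* sub-clusters *Cd74*, *H2-Aa*, *H2-Ab1* and *H2-Eb1* rose by log2 1.42, 1.35, 1.43 and 1.13 (edgeR adjusted p from 0.0026 to 0.0028), while *H2-DMa* (log2 0.83, adjusted p = 0.057) and *H2-DMb1* (log2 0.58, adjusted p = 0.117) did not pass there. Without the mixed droplets the 4 genes were called at log2 1.43, 1.36, 1.44 and 1.15, and *H2-DMa* (adjusted p = 0.068) and *H2-DMb1* (0.132) were not. With an upper limit of 21997 UMIs, which removed 195 members, the *Cd74* difference was log2 1.29 (edgeR adjusted p = 0.074), and the calls of *H2-Aa*, *H2-Ab1* and *H2-Eb1* were lost as well. With at least 30 UMIs of the 5 genes *Cd74* (log2 1.22, edgeR adjusted p = 0.076) and *H2-Ab1* (1.22, 0.0936) lost their call, and with each member thinned to 1000 UMIs *H2-Aa* (0.83, 0.727), *H2-Ab1* (1.59, 0.115) and *H2-Eb1* (1.49, 0.115) did.

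On GRCm38 the 3 chain genes lie close together on chromosome 17. *H2-Ab1* covers chr17:34257689-34269419 on the plus strand, *H2-Aa* chr17:34282744-34287823 on the minus strand and *H2-Eb1* chr17:34305867-34316674 on the plus strand. Class II promoters are known for a short block read by a shared set of factors, with an X box and a Y box that holds the inverted CCAAT letters ATTGG. RefSeq promoter windows (GRCm38.p6) matched 4 of the 6 class II genes named here. The 150 bases before the transcription start of *H2-Aa* and *H2-Eb1*, chain genes that moved together, are shown with ATTGG and its reverse complement CCAAT in capitals.
H2-Aa (chr17:34287824-34287973, minus strand): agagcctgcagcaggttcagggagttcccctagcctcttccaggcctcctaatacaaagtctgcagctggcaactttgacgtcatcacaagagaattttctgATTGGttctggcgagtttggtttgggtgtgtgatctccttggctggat
H2-Eb1 (chr17:34305717-34305866, plus strand): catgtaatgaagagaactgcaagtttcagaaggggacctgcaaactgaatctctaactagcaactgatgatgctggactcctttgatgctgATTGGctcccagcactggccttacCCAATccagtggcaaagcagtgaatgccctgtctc
ATTGG began 48 bases before the start in *H2-Aa* and 59 in *H2-Eb1*, and CCAAT 35 bases before it in *H2-Eb1*. Of the other matched genes, *H2-DMb1* had ATTGG 61 bases before its RefSeq start and *H2-DMa* had neither in 150 bases. The GENCODE start of *H2-DMb1* lies at 34153072, inside that window, so it is not printed. On either strand ATTGG was in 33.8% of all 32851 windows of 250 bases before a start. A match of letters is a description and not a measured site.

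The class II RNA was spread over many of the *Slc47a1* cells rather than a few. With each cell thinned to 2000 UMIs, *Cd74* was detected in 34.5, 35.4, 62.8 and 60.2% of them (65.5, 58.4, 86.2 and 80.8% before thinning). The thinned shares of endothelial barcodes were 1.41, 1.67, 3.11 and 3.22%, and of mural barcodes 0.901, 1.68, 3.48 and 2.12%, at median depths of 6534 and 14915 UMIs before thinning. For *H2-Aa* the thinned shares of *Slc47a1* cells were 20.4, 17.7, 43.0 and 42.9%. Thinned *Cd74* UMIs per positive cell were 2.92, 2.63, 4.22 and 4.08, so the share of cells and the amount in each were both higher in the aged mice.

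Levels differed between sub-clusters. In the *Lama1* sub-cluster *Cd74* was 0, 14.9, 31.3 and 10.1 CPM of the plain sum, from at most 3 UMIs in a mouse, and *H2-Aa* was not counted in any mouse. In sub-cluster 2 *Cd74* was 473, 463, 1173 and 2067 CPM, and in sub-cluster 6 it was 284, 1045, 1986 and 1112 CPM, the second value from 4 cells. Sub-cluster 4 had 299.7, 220.2, 315 and 687 CPM. Sub-cluster 3 had 1042, 695, 1210 and 551 CPM, so its aged mouse fed 5% inulin was below both adult mice. Sub-clusters 2, 4 and 6 were higher in both aged mice than in both adult mice, and these values carry no test.

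**Figure D4:**
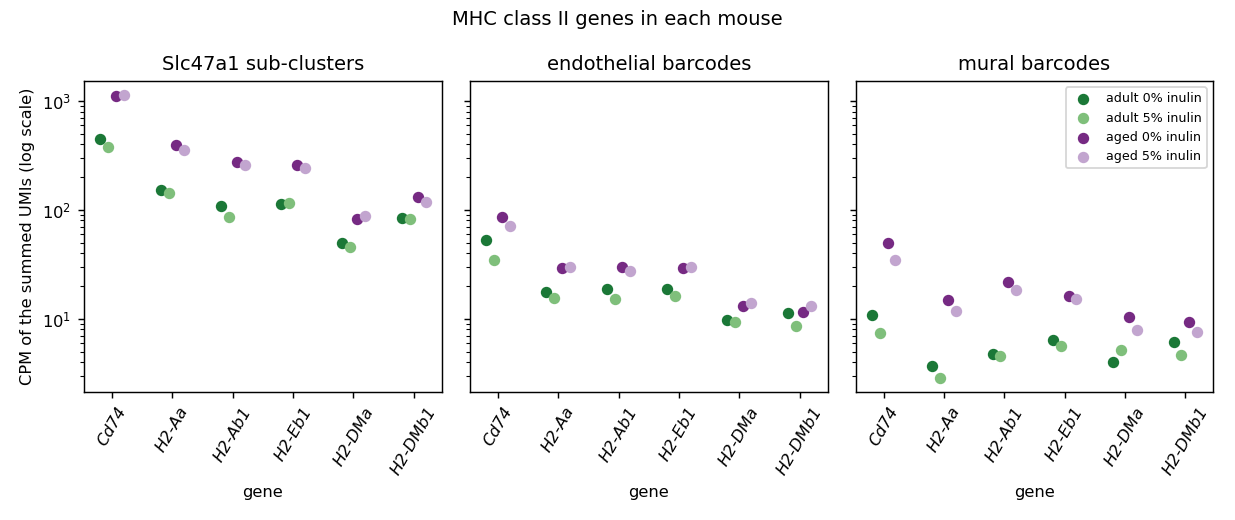
CPM of the plain UMI sums (vertical, log scale) of 6 class II genes in each of the 4 mice (colours), for the *Slc47a1* sub-clusters, endothelial and mural barcodes (panels). In the *Slc47a1* sub-clusters both aged mice lie above both adult mice for each gene, *Cd74* at 1099 and 1130 against 451 and 376 CPM, and each gene's levels are above those of the same gene in the other panels.

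Microglia express the same genes, so their markers are set beside these values. In the *Slc47a1* sub-clusters *C1qa*, a complement gene of microglia, was 14.8, 21.4, 33.3 and 20.2 CPM of the plain sum, against 989.5, 1026, 1770 and 1576 CPM in all other barcodes. *C1qb*, its partner subunit, was 14.8, 26.7, 48.6 and 25.5 CPM there, and *Cx3cr1*, the fractalkine receptor, 5.40, 7.87, 5.66 and 7.30 CPM. *Lyz2* (5.40, 9.62, 23.3 and 16.3 CPM) and *Ctss* (11.5, 9.18, 27.3 and 18.9 CPM) were higher there in both aged mice than in both adult mice. *P2ry12* (8.28, 6.12, 5.66 and 3.32 CPM) was lower. *Slc47a1* cells without a UMI of 9 myeloid genes (*C1qa*, *C1qb*, *Cx3cr1*, *P2ry12*, *Ptprc*, *Mrc1*, *Pf4*, *Lyz2* and *Itgax*) numbered 56, 47, 30 and 19, and their *Cd74* was 599, 420.3, 1666 and 1348 CPM. Both aged mice were above both adult mice in these cells, which were chosen for lacking myeloid UMIs. The part of myeloid RNA in the class II rise was not tested. The ratio of *Cd74* to *H2-Ab1* UMIs was 3.99 to 4.42 in the *Slc47a1* cells of the 4 mice, 2.58 to 2.82 in the other barcodes, 2.29 to 2.89 in endothelial and 1.63 to 2.25 in mural barcodes. The ratio of *Cd74* to *H2-Aa* overlapped between them, at 2.64 to 3.16, 2.60 to 2.90, 2.25 to 2.94 and 2.59 to 3.32.

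Of the 16 genes of the antigen presentation list, all tested, 5 rose and 11 were not called. All 16 had a positive change, with a median log2 of 0.67 against 0.0015 for all genes tested, in a list chosen with earlier results known. The called member besides *Cd74* and the 3 chains was *Psmb8*, an immunoproteasome subunit named after its values were seen, which stood at 27.2, 28.1, 57.5 and 68.1 CPM and rose by log2 1.18 ± 0.15 (edgeR adjusted p = 0.014). It was also called in the *Slc47a1* sub-clusters (log2 1.14, adjusted p = 0.031). Of the class I side, *H2-K1*, a heavy chain, stood at 239.6, 275, 334 and 338 CPM (edgeR adjusted p = 0.198) and *B2m*, the light chain, at 299.9, 348, 374 and 373 CPM (edgeR adjusted p = 0.581), without overlap but short of the threshold. *H2-M3*, a class I gene outside the list that was named after its values were seen, stood at 17.1, 17.6, 34.5 and 34.2 CPM and rose by log2 0.99 (edgeR adjusted p = 0.035). It was called in neither the *Slc47a1* sub-clusters (log2 0.97, edgeR adjusted p = 0.074) nor without the mixed droplets (log2 0.98, 0.083). The interferon response list had 24 genes tested, of which none was called and 20 were positive (median log2 0.26). Its most abundant members, *Ifitm3* at 528, 595, 564 and 726 CPM and *Ifitm2*, had overlapping age groups.

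Among the immune lists outside antigen presentation, 2 genes were called. Of 11 complement genes 1 rose, *C4b*, which forms the classical convertase, at 14.5, 13.002, 37.2 and 37.1 CPM (2.69-fold, log2 1.43 ± 0.17, edgeR adjusted p = 0.012). In the *Slc47a1* sub-clusters its change was log2 1.34 (adjusted p = 0.071), and without the mixed droplets it was called (log2 1.78). Of 12 chemokine and cytokine genes 1 rose, the interferon-induced *Cxcl10*, from 1 and 1 UMIs in the adult to 24 and 17 in the aged mice. Its aged level in the members, 7.15 and 4.93 CPM, was below the 41.4 and 32.6 CPM of the same mice's other barcodes. Outside the lists and named after their values were seen, the chemokines *Ccl4* (2.61, 1.41, 31.6 and 27.0 CPM, log2 3.80, edgeR adjusted p = 0.0032) and *Ccl3* (3.77, 2.46, 22.9 and 19.4 CPM, log2 2.73, adjusted p = 0.011), *Gimap4*, a GTPase of lymphocytes (0, 0, 3.57 and 4.64 CPM), and *AW112010* (1.45, 5.62, 20.2 and 18.8 CPM) were called higher too. Each stood lower in the members than in the other barcodes of the aged mice, where *Ccl4* was 209.8 and 190.1 CPM. None was called in either smaller set, and *Cxcl10*, *Ccl4* and *Gimap4* were too low to be tested there.

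Among the signalling lists, 1 gene of retinoic acid handling rose. *Cyp26b1*, which degrades retinoic acid, stood at 2.32, 4.92, 30.7 and 20.01 CPM (log2 2.83 ± 0.38, edgeR adjusted p = 0.018), and was too low to be tested in the *Slc47a1* sub-clusters, while the other 13 tested genes of that list were not called. None was called of 28 BMP and TGF-beta genes (*Id3*, their shared target, at 1043, 1108, 1104 and 1180 CPM), of 11 WNT genes (the agonist *Rspo3* at 1033, 875, 1097 and 1157 CPM), of 10 IGF genes or of 11 PDGF and FGF genes. The median log2 changes of these 4 lists lay between -0.15 and 0.15. None of 19 fibroblast transcription factors was called, with *Foxd1* at 704, 667, 812 and 867 CPM.

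No gene of the 7 lists of matrix genes was called. None of the 5 fibrillar collagen genes tested outside the rule was called, with a median log2 of -0.76 (-0.43 in the *Slc47a1* sub-clusters) and 1 positive. *Col11a1*, a minor fibrillar chain, stood at 30.4, 30.2, 17.3 and 17.7 CPM (log2 -0.79 ± 0.17, edgeR adjusted p = 0.082), with no overlap between the ages, and the more abundant *Col5a2* at 73.0, 71.7, 63.1 and 66.1 CPM. Basement membrane genes (18 tested, median log2 -0.28, 4 positive), other collagens (13, median -0.07), small proteoglycans (7, median 0.05), elastic fibre genes (14, median -0.0036), matrix proteases and inhibitors (20) and adhesive glycoproteins (14) also had no call, and of these lists only the small proteoglycans had a median above 0. *Col6a1* was level across the mice, at 520.2, 562, 528 and 550.0 CPM. *Fn1*, fibronectin, stood at 753, 830.4, 1020.3 and 1106 CPM (edgeR adjusted p = 0.155).

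Of 24 collagen processing genes 2 fell. *Serpinh1*, the collagen chaperone of the endoplasmic reticulum, stood at 528, 498, 340.0 and 334 CPM (log2 -0.61 ± 0.10, edgeR adjusted p = 0.038) and fell in the *Slc47a1* sub-clusters as well (log2 -0.71, adjusted p = 0.031). *P4ha1*, a prolyl hydroxylase of collagen, stood at 99.4, 101, 59.8 and 61.5 CPM (log2 -0.72 ± 0.11, edgeR adjusted p = 0.029), and was not called in the *Slc47a1* sub-clusters (log2 -0.70, adjusted p = 0.071) or without the mixed droplets (log2 -0.73, adjusted p = 0.068). Neither gene's age groups overlapped, as was so for every called gene. *Serpinh1* is also a heat shock gene, and 2 of 24 immediate early and heat shock genes fell. *Hspa8*, the constitutive HSP70, stood at 1848, 1738, 1105 and 1132 CPM (log2 -0.68 ± 0.11, edgeR adjusted p = 0.029) and its partner *Hsph1* at 101, 110, 66.7 and 55.1 CPM (log2 -0.79 ± 0.13, edgeR adjusted p = 0.038). *Hspa8* was called in both smaller sets and *Hsph1* in neither (log2 -0.74 and -0.75, edgeR adjusted p = 0.080 and 0.108). *Hspa8* and *Serpinh1* lost their call without Scrublet calls and with at least 10 or at least 30 UMIs of the 5 genes.

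The cold-inducible RNA-binding protein genes *Cirbp* and *Rbm3*, which form no list here, went the other way. *Cirbp* stood at 42.9, 49.2, 97.7 and 110 CPM (2.27-fold, log2 1.18 ± 0.13, edgeR adjusted p = 0.011), and *Rbm3*, named after its values were seen, at 253, 254, 398 and 424 CPM (log2 0.70 ± 0.10, edgeR adjusted p = 0.024). Both were also called in the *Slc47a1* sub-clusters, by log2 1.26 and 0.72. The vessel classes moved in the same direction for these genes. *Cirbp* changed by log2 1.07 in mural and 1.24 in endothelial barcodes, *Hspa8* by -0.65 and -0.70, *Serpinh1* by -0.55 and -0.68 and *P4ha1* by -0.72 and -0.73, and the test of the difference between the classes called none of them.

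*Coch*, *Prg4* and *Dapl1* rose in all members, and none of the 3 was called in both smaller sets. *Coch*, cochlin, a matrix protein best known from the inner ear, stood at 50.7, 60.4, 175 and 162 CPM (3.04-fold, log2 1.60 ± 0.13, edgeR adjusted p = 0.0030), and was called without the mixed droplets (log2 1.41), but its value in the *Slc47a1* sub-clusters was log2 1.04 (adjusted p = 0.059). *Prg4*, lubricin, named after its values were seen, stood at 700.1, 654, 1148 and 1048 CPM (log2 0.70 ± 0.11, edgeR adjusted p = 0.029), and was not called in the *Slc47a1* sub-clusters (log2 0.56, adjusted p = 0.117) or without the mixed droplets (log2 0.57, adjusted p = 0.147). *Dapl1*, a leading gene of sub-cluster 4, stood at 60.3, 55.5, 111 and 152 CPM (log2 1.18 ± 0.16, edgeR adjusted p = 0.018) and was called in the *Slc47a1* sub-clusters (log2 1.04, adjusted p = 0.033) but not without the mixed droplets (log2 1.05, adjusted p = 0.054). Sub-cluster 4 held 28, 28, 21 and 30 cells of the 4 mice.

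Other rises were of genes with several roles. *Tes*, a LIM protein of focal adhesions, stood at 56.2, 51.7, 93.5 and 105 CPM (log2 0.87 ± 0.13, edgeR adjusted p = 0.021), and *Pdzk1ip1*, a small membrane protein, at 40.3, 46.7, 71.5 and 76.8 CPM (log2 0.77 ± 0.13, edgeR adjusted p = 0.040). *Ly6a*, known as Sca-1, was the 1 called gene of 9 universal fibroblast state genes, at 20.6, 22.5, 41.4 and 46.1 CPM (log2 1.03 ± 0.15, edgeR adjusted p = 0.024), far below its 648, 889, 885 and 1045 CPM in the other barcodes. Without the mixed droplets *Tes* (log2 0.81, edgeR adjusted p = 0.068), *Pdzk1ip1* (0.70, 0.115) and *Ly6a* (0.80, 0.117) were not called, and in the *Slc47a1* sub-clusters *Pdzk1ip1* (0.67, 0.1305) and *Ly6a* (0.86, 0.079) were not. *C130026I21Rik*, an interferon-related gene of a multicopy family, stood at 9.85, 10.2, 53.0 and 51.0 CPM (5.18-fold, log2 2.37 ± 0.16, edgeR adjusted p = 0.0030). Its near-identical copies *A530032D15Rik*, *AC168977.1* and *AC133103.1* were called higher as well, and the counting could have split reads among them, so each single value is uncertain.

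The solute transporters had 2 falling genes of 24. *Slc6a20a*, a proline transporter and the ninth leading gene of the *Lama1* sub-cluster, stood at 46.4, 46.4, 17.3 and 23.2 CPM (log2 -1.19 ± 0.17, edgeR adjusted p = 0.021) and was too low to be tested in the *Slc47a1* cells. *Slc1a3*, the glutamate transporter of astrocytes, stood at 58.8, 91.7, 19.7 and 30.7 CPM (log2 -1.57 ± 0.26, edgeR adjusted p = 0.035). The *Lama1* sub-cluster gave 9 and 18 cells in the adult mice and 5 and 11 in the aged ones, and the part of this makeup in the falls was not tested. Without the mixed droplets neither *Slc6a20a* (log2 -0.98, edgeR adjusted p = 0.310) nor *Slc1a3* (-1.61, 0.166) was called, and *Slc1a3* was not called in the *Slc47a1* cells (-1.91, 0.064). *Sulf1*, a heparan sulfatase (148, 128, 72.6 and 62.0 CPM), and *Mia* (147, 151, 95.9 and 73.1 CPM) were called lower in all members at log2 -1.04 and -0.82, but not in the *Slc47a1* sub-clusters, at -0.36 and -0.46 (edgeR adjusted p = 0.564 for each), or without the mixed droplets, at -0.45 each (0.377 and 0.610). *A2m*, a protease inhibitor, stood at 66.7, 14.4, 1.49 and 1.45 CPM (230, 41, 5 and 5 UMIs), most of it in 1 adult mouse. Taking out the mixed droplets alone left it too low to be tested, as it was in the *Slc47a1* sub-clusters. The part of mixed droplets in its fall was not tested. *Ptgds* stood at 9412, 9647, 5927 and 6596 CPM (log2 -0.61 ± 0.12, edgeR adjusted p = 0.069) without overlap.

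Of 12 cell cycle and senescence genes 3 fell. *Ccnd2*, cyclin D2, stood at 76.2, 55.9, 21.1 and 25.8 CPM (log2 -1.50 ± 0.19, edgeR adjusted p = 0.016) and fell in the *Slc47a1* sub-clusters by 1.61 on the log2 scale (adjusted p = 0.0059). *Top2a* and *Mki67*, genes of dividing cells, were 16.8 and 32.7, and 12.5 and 23.9 CPM in the adult mice, and at most 1.19 CPM in the aged ones. These levels came from 58 and 93 UMIs of *Top2a* and 43 and 68 of *Mki67* in the adult mice. Taking out the mixed droplets alone left both genes too low to be tested, as they were in the *Slc47a1* sub-clusters. The part of mixed droplets in these 2 falls was not tested. Of 16 junction genes only *Cldn1* was called, at 8.69, 15.1, 1.49 and 1.74 CPM, and it too was not tested in either smaller set. None of 24 ribosomal protein genes was called, with 22 positive and a median log2 of 0.11.

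Each mouse was left out in turn for the 28 genes called with age that the rule for named genes gave. The calls of 15 held in all 4 of these fits, among them *Cd74* (log2 1.42 to 1.68), *H2-Aa* (1.37 to 1.57), *H2-Ab1* (1.40 to 1.81), *H2-Eb1* (1.22 to 1.32), *C130026I21Rik* (2.35 to 2.40), *Coch*, *C4b*, *Cyp26b1*, *Dapl1*, *Cirbp*, *Hspa8* and *Ccnd2*. The other 13 lost their call at least once while keeping their sign. *Cxcl10*, *Ly6a*, *H2-DMa*, *Tes*, *Pdzk1ip1*, *P4ha1*, *Hsph1*, *Cldn1* and *A2m* lost it without either aged mouse, *Mia* without the one fed 5% inulin, and *Slc6a20a* and *Slc1a3* without the one fed 0%. *Serpinh1* lost it without either aged mouse and without the adult mouse fed 0% inulin, at log2 -0.65 to -0.56 and an edgeR adjusted p of up to 0.089. The highest adjusted p of the 13 was 0.254, for *Cxcl10*.

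**Figure D5:**
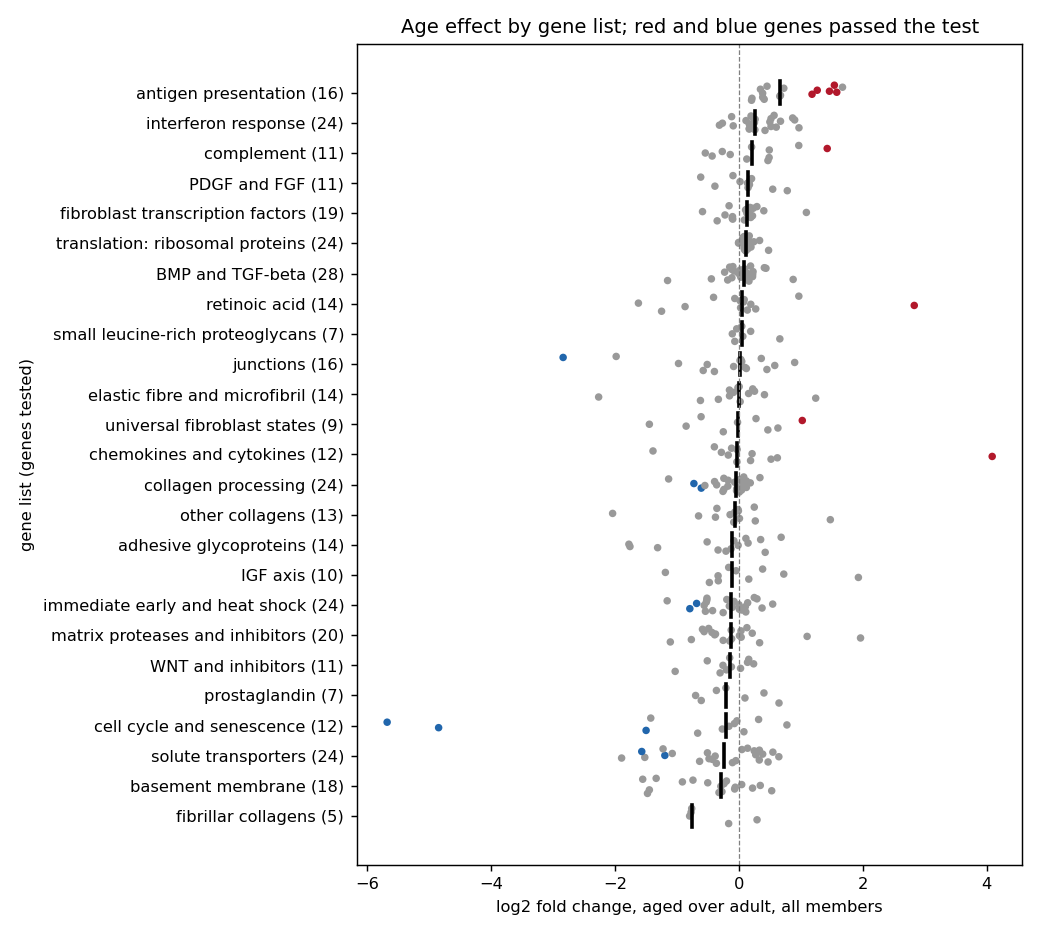
Log2 fold change with age of the tested genes of each list (points, lists on the vertical axis with the number of genes tested), with each list's median as a bar and called genes in red (higher) or blue (lower). The antigen presentation genes all lie above 0, with a median of 0.67, and the fibrillar collagens have the lowest median, -0.76. The lists were chosen with earlier results of these data known.

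Some markers of other cell types were called lower with age among the members. Of the 6 astrocyte markers *Gja1*, a gap junction gene, was the most abundant. It stood at 666, 582, 458 and 419 CPM of the plain sum (edgeR adjusted p = 0.118), above its 254, 276, 246 and 193 CPM in the other barcodes. The other 5 summed to 252, 342, 66.0 and 95.1 CPM in the members, to 185, 321, 59.2 and 81.6 CPM in the *Slc47a1* sub-clusters and to 1641, 1904, 1598 and 1354 CPM in the other barcodes, and 4 of them were called lower. The 6 pericyte markers, led by *Vtn*, summed to 209.8, 357, 52.3 and 123 CPM and to 36.3, 56.0, 19.96 and 25.2 CPM in the *Slc47a1* sub-clusters, against 828, 1026, 1041 and 1144 CPM in the other barcodes. *Vtn* stood at 3859 CPM in the *Lama1* sub-cluster. The pericyte gene *Rgs5* (23.2, 22.8, 5.66 and 8.41 CPM, edgeR adjusted p = 0.027) and the endothelial marker *Pltp* (71.3, 91.7, 39.6 and 42.9 CPM, adjusted p = 0.0295) fell and were called in neither smaller set. The 7 endothelial markers summed to 489, 521, 433 and 462 CPM. The choroid plexus markers, led by *Ttr*, summed to 36251, 19801, 11166 and 13124 CPM, and to 3181, 2598, 1405 and 1477 CPM in the *Slc47a1* sub-clusters, with 142111, 112795, 89839 and 96565 CPM in the other barcodes. Their marker *Clic6* was called lower, at 98.2, 73.4, 26.2 and 23.8 CPM (edgeR adjusted p = 0.0055), but in neither smaller set (log2 -0.21 and -0.24). *Prlr*, *Folr1*, *Tmem108*, *F5* and *Otx2*, leading genes of sub-cluster 8 named after their values were seen, were called lower as well. The part of choroid plexus RNA in the called falls was not tested. The 5 T or NK cell markers, led by *Trbc2*, summed to 0.565, 1.07, 9.51 and 31.5 CPM, and to 0.360, 0.875, 10.6 and 6.30 CPM in the *Slc47a1* sub-clusters, against 25.8, 35.2, 97.6 and 107 CPM in the other barcodes. Only 1 of the 5 could be tested and it was not called, and their part in the immune results above was not tested. No microglia marker was called by edgeR, with *C1qa* at 114, 52.7, 154 and 124 CPM of the plain sum over all members. Of all 18 marker lists only *Mog*, of oligodendrocytes, was at 0 in all mice. The part of such RNA in the called falls of astrocyte genes such as *Aldoc* (45.8, 80.1, 15.5 and 14.2 CPM), *Gpr37l1* and *Bcan*, named after their values were seen, was not tested. *Gpr37l1* and *Bcan* were called lower in both smaller sets as well.

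The age effect of the members was compared with the mean of that in 2351 mural and 9409 endothelial barcodes, with the mouse as a block. Of 17554 genes, 9 were called with a higher change in the members (0.0513%) and 15 with a lower one (0.0855%). *Dapl1* was apart by log2 2.16 ± 0.31 (edgeR adjusted p = 0.042), with mural values of 1.57, 1.80, 0.677 and 0.968 CPM. *Tes* was apart by 0.96 ± 0.14 (edgeR adjusted p = 0.042), at a change of -0.06 in mural and -0.03 in endothelial barcodes. *Auts2*, a regulator of transcription, stood at 249.8, 248.8, 249.2 and 252.8 CPM in the members and changed by log2 -0.79 in mural and -1.17 in endothelial barcodes, a difference of 1.03 ± 0.12 (edgeR adjusted p = 0.031). *Hspb1*, a small heat shock protein, stood at 410.0, 406, 407 and 415 CPM in the members, with -0.55 in mural and -0.67 in endothelial barcodes, a difference of 0.66 ± 0.09 (edgeR adjusted p = 0.031). *C130074G19Rik* (1.24 ± 0.16) and *Arhgef5* (0.77 ± 0.11) were also called. In the adult mice *C130074G19Rik* and *Hspb1* stood lower in the members than in the other barcodes, so they met the level limit for naming through the aged mice alone. Of genes outside that limit, *Ly6a* was apart by 0.91 and *AW112010* by 2.55. No called gene of the lower side met that limit. There *Ccnd2* was apart by log2 -1.13 (edgeR adjusted p = 0.046), the astrocyte genes *Slc1a2* by -1.45 and *Gpr37l1* by -2.18, *Rgs5* by -1.58 and *Pltp* by -1.22. The interferon-induced *Ifi27l2a*, named after its values were seen, was apart by -1.51, with changes of 2.68 in mural and 2.07 in endothelial barcodes. No class II gene was among the calls. Without the mixed droplets edgeR called 0 genes with a higher change in the members, at 1396 genes with an unadjusted p under 0.05 against 1837 with them. Leaving out any 1 mouse left at most 1 call of this kind, *Auts2* without the aged mouse fed 5% inulin, and the differences of *Dapl1*, *Tes*, *Auts2*, *Hspb1*, *C130074G19Rik* and *Arhgef5* stayed positive in all 11 alternatives run, at 0.14 to 1.11 for *Tes* and 1.86 to 2.42 for *Dapl1*.

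The changes of *Cd74* and the 3 chain genes lay between those of the other 2 classes. *Cd74* stood at 10.8, 7.48, 49.2 and 34.4 CPM of the plain sum in mural barcodes (log2 change 2.21) and at 52.4, 34.8, 86.6 and 70.5 CPM in endothelial barcodes (0.86), and the members' change differed from the mural one by -0.61 and from the endothelial one by 0.71 (edgeR adjusted p = 0.355 and 0.260). *H2-Ab1* differed by -0.47 and 0.86 (adjusted p = 0.347 and 0.048), so its relative change was called higher than in endothelial barcodes. *H2-Aa* differed by -0.52 and 0.65 (0.362 and 0.148) and *H2-Eb1* by -0.09 and 0.52 (0.926 and 0.193), neither of them called. A difference that misses the threshold does not show equal changes. In level, the *Slc47a1* sub-clusters were at 451, 376, 1099 and 1130 CPM for *Cd74*, above endothelial and mural barcodes in each mouse.

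Diet gave no called gene in the fit that pooled the ages, and 5 higher and 5 lower genes with age as a covariate (532 with an unadjusted p under 0.05). With ages pooled, 0 of 12328 genes were higher (0%) and 0 lower (0%) with 5% inulin by edgeR, 267 had an unadjusted p under 0.05, and DESeq2 called 0 with 68 at that unadjusted p. *Cd74* stood at 391 and 1031 CPM in the mice fed 0% inulin and at 328 and 1064 CPM in those fed 5%. Each diet held 1 adult and 1 aged mouse, so overlap by diet of the class II genes followed from their age difference. Within each age *H2-Aa*, *H2-Ab1* and *H2-DMb1* were lower with 5% inulin, while *Cd74*, *H2-Eb1* and *H2-DMa* differed in direction between the ages. None of them was called for diet in the pooled fit. Some sub-cluster shares ran by diet at both ages. The *Lama1* sub-cluster was 5.45, 12.8, 3.68 and 9.09% of members, sub-cluster 2 was 29.1, 7.80, 38.2 and 22.3%, and sub-cluster 4 was 17.0, 19.9, 15.4 and 24.8%. Sub-cluster 5 was in 1 mouse and absent from the aged mouse of the same diet. These shares carry no test, since 2 mice against 2 cannot pass a threshold, and with 1 mouse per age and diet a mouse and its diet cannot be told apart.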

How the data were processed

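Brain cells of 4 mice were measured in 4 libraries. The authors counted UMIs per gene and barcode with Cell Ranger 3.1.0 on GRCm38 (per the submitters' processing notes), and the deposited counts are whole numbers that are neither normalized nor filtered by cell quality. Members were found by the limits given above. The members and gene lists were chosen with earlier results of these data known.

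Counts were summed over members within each mouse and tested with edgeR 4.0.16 (filterByExpr, TMM, quasi-likelihood) in R 4.3.3. A gene was called at a Benjamini-Hochberg adjusted p under 0.05 together with a change over 1.5-fold. CPM in age results is on the TMM scale, other CPM is of plain sums. DESeq2 1.42.0 was an alternative. Mural barcodes had at least 5 UMIs of the 3 mural genes and endothelial ones at least 11 of the 3 endothelial genes. Sub-clusters came from Leiden clustering (leidenalg 0.10.2, resolution 0.5) in scanpy 1.11.5, with the 13 rule genes left out. A marker list was met with 3 genes seen in 25% of cells and 1.5-fold over other members. Scrublet (expected rate 0.08) called 11 members, which were kept.

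Named genes were the rule genes, the called members of 25 lists (up to 4 each, otherwise the 2 most abundant), the 12 largest called rises and falls with a mean of at least 20 CPM and, in the age group where they were higher, a level above that in other barcodes, the leading genes, and up to 10 genes of the class comparison under the same limits, which 1 age group was enough to meet. Places came from GENCODE M21, promoters from RefSeq. In simulated sums, edgeR recovered 85.5% of 200 genes changed 2-fold for age among 12072, all 200 with a mean of at least 50 UMIs, with 18 false calls, and made 0 calls with no gene changed. Alternatives covered tools, scaling, filters, covariates, depth, doublets, the minimum of the 5 genes and each mouse left out. The labels give 1 mouse per group and nothing on handling batches. The level of 1 marker gene, the sum that rests on it, and the value of 1 gene of the class comparison are not reported here.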

Additional observations from a re-analysis of the deposited data

Results flagged for a closer look

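In 24 genes the age effect of the members differed from the mean of mural and endothelial barcodes in the test of the difference itself (edgeR with the mouse as a block, adjusted p from 0.031 to 0.046). The change was higher in the members in 9 of them and lower in 15, and those that the rule for named genes did not give were named after their values were seen. On the higher side the log2 differences were 2.55 for *AW112010*, 2.16 for *Dapl1*, 1.24 for *C130074G19Rik*, 1.03 for *Auts2*, 0.96 for *Tes*, 0.91 for *Ly6a*, 0.87 for *Dleu2*, 0.77 for *Arhgef5* and 0.66 for *Hspb1*. On the lower side they included -1.13 for *Ccnd2*, -1.22 for *Pltp*, -1.41 for *Ttyh1*, -1.45 for *Slc1a2*, -1.51 for *Ifi27l2a*, -1.58 for *Rgs5*, -2.18 for *Gpr37l1*, -2.24 for *Pla2g7*, -2.26 for *Slc30a10*, -2.32 for *Lrp8*, -2.63 for *Fam181b*, -2.86 for *Rorb*, -4.50 for *Rmst* and -6.62 for *Tpx2*. None of the 15 lower ones met the level limits for naming. Without the mixed droplets 2 lower differences were called, and 7 in the *Slc47a1* sub-clusters. Without Scrublet calls and with the upper limit on UMIs 0 were called. Against endothelial barcodes alone the difference of *H2-Ab1* was 0.86 (edgeR adjusted p = 0.048). *Dapl1* and *Tes* rose with age in the members, while *Auts2* and *Hspb1* changed by log2 0.01 each there. *C130074G19Rik* stood at 33.0, 24.95, 52.4 and 50.5 CPM in the members (edgeR adjusted p = 0.061 for age) and *Arhgef5* at 58.8, 45.7, 67.9 and 64.7 CPM. Without the mixed droplets, without Scrublet calls, in the *Slc47a1* sub-clusters or with the upper limit on UMIs none of *Dapl1*, *Tes*, *Auts2*, *Hspb1*, *C130074G19Rik* and *Arhgef5* passed the threshold. Without 1 mouse, *Auts2* alone of these passed it, when the aged mouse fed 5% inulin was left out.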

How the results depend on the processing

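The changes with age depended on which members entered. Against 34 genes higher and 91 lower, edgeR gave 208 and 480 with no filter on low counts, 67 and 185 with diet as a covariate, 19 and 18 without Scrublet calls, 18 and 17 with at least 10 UMIs of the 5 genes, 5 and 3 with at least 30, 1 and 0 with the upper limit on UMIs (the 1 was the chemokine *Ccl4*, named after its values were seen) and 1 and 0 with members thinned to 1000 UMIs. Leaving out 1 mouse gave 25 to 202 higher and 43 to 364 lower, with the lone mouse of an age assumed to vary like the others. Without the adult mouse fed 0% inulin the counts were 156 and 347, without the one fed 5% they were 202 and 364, and without the aged mouse fed 0% 43 genes were lower. For diet, 0 and 0 became 10 and 5 with no filter, 5 and 5 with age as a covariate, 7 higher with the upper limit on UMIs, 3 higher when thinned, and 0 to 30 higher and 0 to 2 lower without 1 mouse. The 9 higher and 15 lower differences between classes became 130 and 502 with no filter, 2 and 0 with the upper limit, 0 and 0 without Scrublet calls, 5 lower with at least 10 UMIs, and 0 to 1 and 0 to 7 without 1 mouse. In alternatives chosen after seeing the data, age gave 16 and 15 without mixed droplets and 15 and 15 in the *Slc47a1* sub-clusters, and class differences 0 and 2, and 0 and 7. The causes were not tested, beyond the fewer cells or UMIs that some settings leave.

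Of the 28 genes called with age that the rule named, none changed sign under the alternatives run. With DESeq2, *Cxcl10*, *Ly6a*, *Pdzk1ip1*, *P4ha1* and *Mki67* lost their call. Other called falls did, named after their values were seen. Of the tested falls, *Pcp4* (log2 -2.31), *Chchd10* (-0.90) and *Trpm3* (-1.06) were 0.32, 0.07 and 0.05 in the *Slc47a1* sub-clusters and also positive without mixed droplets, where *Cldn2* (-1.66) was 0.12. Uncalled genes did cross 0, such as *Timp3* (log2 -0.43, up to 0.13) and *Pdgfrl* (0.18, down to -0.43). Of 1016 values of named genes under alternatives, 867 kept their side of the threshold, 134 lost it and 15 gained it. *Cd74* ranged from log2 1.22 to 1.68 over 17 alternatives. The labels give no replicate numbers to pair mice by, and the fit with diet as a covariate is the one that sets mice of a diet against each other. With 2 mice per age and 99 to 142 *Slc47a1* cells per mouse, genes of few UMIs were tested weakly or not at all.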
